A study of Mus musculus with 12 samples.

Results

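Among the regions that ZBTB43 captured from methylated mouse DNA, the ones richest in CpGs were examined. A peak of the SssI list was included when it lay on an autosome and its mm10 sequence held 12 or more CpGs. This rule took 2534 of 169284 autosomal SssI peaks, and the list held 175775 peaks on all chromosomes. The 2534 CpG-rich peaks were divided into 1172 that shared 1 bp or more with a peak of the TKO list and 1362 that did not; these are called shared and unshared peaks.

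The study put ZBTB43 fused to maltose-binding protein (MBP) on beads, let it bind sonicated genomic DNA in vitro, and sequenced the DNA that was retained, a method called affinity-seq. The unmethylated DNA was that of TKO ES cells, a male embryonic stem cell line with the genotype Dnmt1-/-Dnmt3a-/-Dnmt3b-/-, which lacks the cell's main CpG methyltransferases. Methylated DNA came from the lung of adult wild-type male C57BL/6N mice at 2 months of age and was treated with M.SssI, a bacterial CpG methyltransferase. MBP without ZBTB43 was put through the same steps on each DNA as background. Each of these 4 conditions had 2 libraries, out of 12 libraries in the series, and the 4 libraries of sperm DNA were not analysed here. Duplicates were pooled before peaks were called, so each DNA gave 1 list. The lists do not show the spread between replicates, signal tracks of single libraries were not analysed here, and the DNAs were therefore compared without a test. The DNAs differed in source as well as in methylation, and these cannot be told apart. Naked DNA was used, so no chromatin was present at any of these sites.

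ZBTB43 is a zinc finger protein of the BTB family. Runs of alternating purines and pyrimidines, such as CA and CG repeats, are the sequences that most readily take up the left-handed Z form of DNA, and methylation of their CpGs favours that form. Most CpGs of the mouse genome stand alone in CpG-poor sequence, whereas CpG islands, the dense clusters, lie mainly at gene promoters and are not built of repeats. A peak rich in CpGs can therefore be an island, a CpG-bearing repeat, or both.

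The sequences of 4 peaks show what the CpGs of such peaks looked like. In each set the peak with the highest score and no more than 300 bp was taken among peaks with every CpG, some CpGs or no CpG inside an alternating tract. A tract here is 12 bp or more in which purines and pyrimidines alternate without a break, other than runs of A and T alone, and capitals mark tracts. All are printed on the plus strand of mm10, 5′ to 3′. The shared peak with every CpG inside is chr17:80410762-80411057, in intron 17 of Sos1, an activator of Ras. No shared peak of that width without a CpG inside a tract met the other conditions.
Sos1, shared, 15 of 15 CpGs inside: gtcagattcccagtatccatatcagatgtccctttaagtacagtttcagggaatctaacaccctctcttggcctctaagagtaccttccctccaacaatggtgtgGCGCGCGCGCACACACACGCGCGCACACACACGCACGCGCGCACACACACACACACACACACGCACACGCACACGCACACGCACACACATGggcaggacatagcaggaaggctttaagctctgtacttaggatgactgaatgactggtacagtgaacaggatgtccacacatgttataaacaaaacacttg

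The unshared peak with every CpG inside is chr1:20761861-20762149, between genes and 17549 bp from the nearest start site, that of Il17f, a cytokine gene. The unshared peak with some inside is chr14:120356751-120357032, in intron 2 of Mbnl2, a regulator of splicing. The unshared peak with none inside is chr12:49394973-49395225, in intron 2 of 3110039M20Rik.
Il17f, unshared, 13 of 13 CpGs inside: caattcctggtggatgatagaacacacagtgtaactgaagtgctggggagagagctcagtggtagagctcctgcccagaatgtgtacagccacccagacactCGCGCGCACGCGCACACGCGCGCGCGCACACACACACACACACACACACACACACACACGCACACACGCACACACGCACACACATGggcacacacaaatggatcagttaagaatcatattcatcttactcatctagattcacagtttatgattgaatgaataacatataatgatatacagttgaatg
Mbnl2, unshared, 6 of 12 CpGs inside: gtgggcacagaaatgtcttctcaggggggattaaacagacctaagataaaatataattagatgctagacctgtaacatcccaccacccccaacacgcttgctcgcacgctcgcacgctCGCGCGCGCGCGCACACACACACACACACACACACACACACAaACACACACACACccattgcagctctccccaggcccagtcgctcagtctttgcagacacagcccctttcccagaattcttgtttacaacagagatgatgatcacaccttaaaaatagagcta
3110039M20Rik, unshared, 0 of 13 CpGs inside: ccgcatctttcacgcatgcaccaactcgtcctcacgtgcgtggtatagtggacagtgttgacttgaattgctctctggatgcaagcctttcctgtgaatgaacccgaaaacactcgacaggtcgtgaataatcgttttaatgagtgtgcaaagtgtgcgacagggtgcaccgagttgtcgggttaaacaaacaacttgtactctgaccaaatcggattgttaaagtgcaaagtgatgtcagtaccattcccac

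The Sos1 and Il17f peaks each hold 1 tract, of 91 and 86 bp, in which CpGs interrupt a CA repeat. Their flanks hold 0 CpGs. In the Mbnl2 peak a CG run leads into a CA repeat in a tract of 42 bp, and 6 further CpGs lie beside it. The 3110039M20Rik peak has no tract, and its longest alternating run is 11 bp. The scores of the 4 peaks, in the order printed, were 1287, 1197, 1365 and 454. The score is the authors' value for a peak, 10 times the −log10 q-value; it serves here to rank SssI peaks only. The lists hold no read counts, so the depth behind any peak is unknown.

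The CpG-rich peaks carried a median of 14 CpGs, with quartiles of 13 and 18 and a highest value of 101 in the Fam71e2 peak described below. Their median density was 4.53 CpGs per 100 bp, against 0.562 in all autosomal SssI peaks and 0.851 over the autosomes. The rule counts CpGs and does not limit width, so not every one of these peaks was dense. There were 532 with under 3 CpGs per 100 bp, and the lowest had 0.477. Median GC content was 51.3%, against 44.4% in all autosomal SssI peaks and 41.9% over the autosomes. The peaks were 371 bp wide at the median, against 196 bp in all SssI peaks, and their median score of 876 was well above the 108 of all SssI peaks. They lay on all 19 autosomes, at 85.0 (chromosome 3) to 155 (chromosome 17) per 100 Mb. They were 1.5% of the peaks and held 12.9% of the CpGs in all autosomal SssI peaks, a surplus that follows from choosing peaks by CpG number.

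Shared and unshared peaks differed in most of these measures. Shared peaks were 524 bp wide at the median (quartiles 419 and 666), and unshared peaks 248 bp (201 and 334). The median score was 1418 in shared peaks and 284.5 in unshared peaks, with quartiles of 1148 and 1706 against 114 and 690. CpG numbers differed less than width and score, with medians of 16 (quartiles 13 and 22) in shared and 14 (12 and 16) in unshared peaks. Spread over the wider intervals, these gave a lower density in shared peaks, 3.41 CpGs per 100 bp (quartiles 2.57 and 4.41) against 5.76 (4.44 and 7.50). GC content was 49.8% (47.0 and 52.3) in shared and 53.0% (49.6 and 56.7) in unshared peaks. The CpG observed-to-expected ratio was 0.612 in shared and 0.890 in unshared peaks. The criteria of a CpG island (200 bp, 50% GC and a ratio of 0.6, or more) do not set repeats apart. They were met by 25.0% of shared peaks (95% interval 22.6 to 27.6) and 42.4% of unshared peaks (39.8 to 45.1), against 0.794% of all autosomal SssI peaks. These intervals, and those that follow, are Wilson intervals that cover counting error over peaks only.

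A TKO peak was present at 46.3% of CpG-rich peaks (44.3 to 48.2). Among all autosomal SssI peaks this share was 8.47%. It rose with the number of CpGs in the peak. At 0 CpGs it was 2.86% of 53404 peaks, at 3 to 5 CpGs 14.8% of 29456, at 16 to 19 CpGs 48.9% of 497, and at 50 to 101 CpGs 83.7% of 43. The threshold of the rule fell within this rise and not at a step. Of the 764 peaks with 11 CpGs just outside the threshold 33.5% had a TKO peak, and of the 596 with 12 CpGs just inside it 35.7%.

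Width and score rose together with the number of CpGs, from medians of 178 bp and 81 at 0 CpGs to 856 bp and 1045 at 50 or more. Peaks with and without 12 CpGs were therefore set side by side within classes of score. Below a score of 100, 0.685% of CpG-rich peaks (0.188 to 2.46) and 0.160% of the other peaks (0.134 to 0.19) were shared. From 100 to under 200 the shares were 1.98% (0.847 to 4.54) and 0.516% (0.450 to 0.592), and from 200 to under 500 6.10% (4.10 to 8.99) and 3.94% (3.71 to 4.19). From 500 to under 1000 they were 37.6% (33.2 to 42.1) and 31.1% (30.3 to 32). From 1000 to under 1500 they were 78.1% (74.6 to 81.3) and 79.1% (78 to 80). At 1500 or more the order was the opposite, with 89.3% (86.6 to 91.6) of CpG-rich peaks and 94.6% (93.8 to 95.3) of the others shared. With classes of both score and width, 19 classes held 20 or more peaks of each kind. The CpG-rich share was the higher one in 7 of them and the lower one in 12, and the intervals were apart in 3 and 3. Between peaks of like score and width the CpG-rich share was thus not steadily the higher one.

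**Figure D1:**
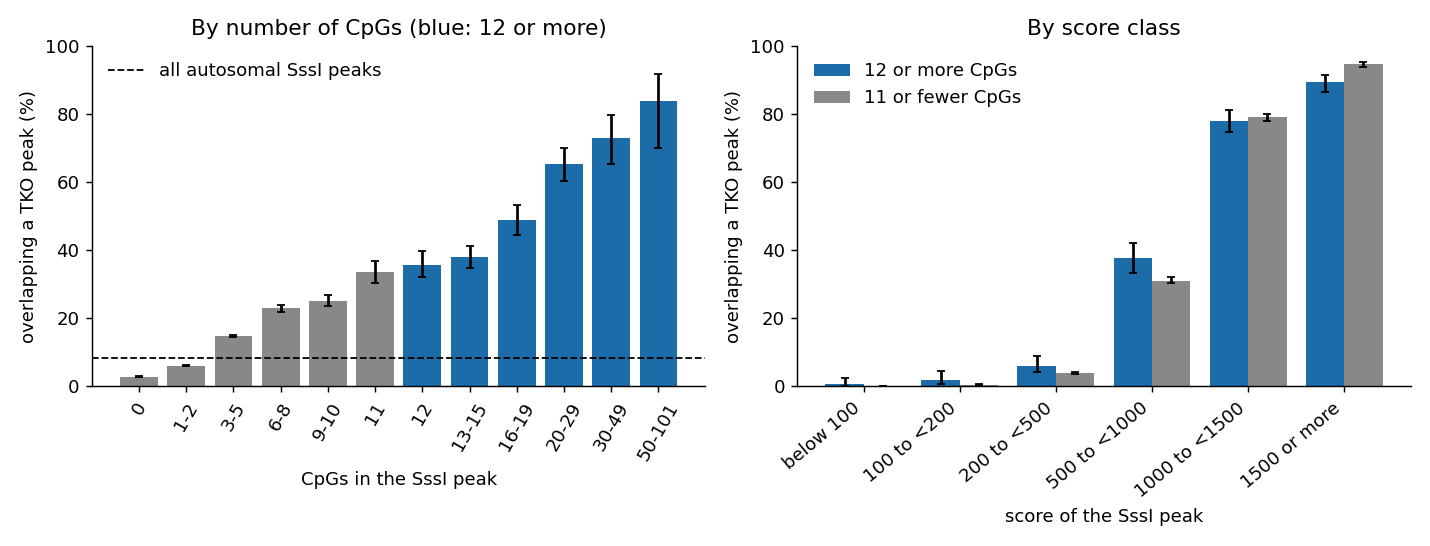
Share of autosomal SssI peaks that overlap a TKO peak (vertical axes, percent), by number of CpGs in the peak (left) and by score class for peaks with 12 or more and with 11 or fewer CpGs (right); bars are shares and error bars Wilson 95% intervals. The share climbs from 2.86% to 83.7% with CpG number, whereas within score classes the CpG-rich share is above the other one from 100 to under 200 and from 500 to under 1000, below it at 1500 or more, and the intervals overlap in the other 3 classes.

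Density went the other way from number. Among the CpG-rich peaks, a TKO peak was present at 82.7% of the 532 with under 3 CpGs per 100 bp, at 58.6% of the 939 with 3 to under 5, and at 17.1% of the 1063 with 5 or more. With 12 or more CpGs a low density can only be that of a wide peak, and median widths in these classes fell from 603 through 398 to 226 bp. Density and width can therefore not be told apart here. Between scores of 1000 and 1500 the shares were 90.8%, 73.6% and 70.2%, at median widths of 632, 403 and 453.5 bp, and at 1500 or more 95.3%, 86.5% and 79.4%, at 574.5, 492.5 and 476 bp. When peaks were chosen by a density of 5 CpGs per 100 bp or more and not by number, 2236 peaks resulted. Of these 8.54% (7.45 to 9.77) had a TKO peak, next to the 8.47% of all SssI peaks. Their median width was 177 bp and their median score 96, both below those of the peaks chosen by number.

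Where a TKO peak was present, it covered most of the SssI peak and of its CpGs. The 1172 shared peaks met 1204 TKO peaks, 8.27% of the autosomal TKO list, and 26 of them met more than 1. TKO peaks covered 66.7% of the bases of shared peaks and 83.8% of their CpGs (19293 of 23036). Seen from the TKO list, 808 autosomal TKO peaks held 12 or more CpGs, and 806 of these overlapped an SssI peak. The study describes its TKO peaks in general as part of the SssI peaks. The share over all autosomal TKO peaks is not given here, so this overlap is not read as particular to CpG-rich ones.

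Most CpGs of these peaks lay inside alternating tracts. Over all CpG-rich peaks 30350 of 44374 CpGs did (68.4%), against 51.0% of the CpGs of all autosomal SssI peaks and 2.26% of autosomal CpGs. The share was 71.9% in shared peaks (16555 of 23036) and 64.6% in unshared peaks (13795 of 21338). CpGs of 1 peak are not independent, so the per-peak values are the better guide. There the sets hardly differed, with medians of 77.3% in shared peaks (quartiles 58.3 and 88.9) and 78% in unshared peaks (54.3 and 91.7). At least 1 tract was present in 97.5% of shared and 96.6% of unshared peaks, close to the 98.7% of all SssI peaks. The longest tract of a CpG-rich peak had a median of 69 bp (quartiles 50 and 93), against 46 bp (36 and 54) in the other SssI peaks, and in shared peaks it was longer, 83 bp, than in unshared peaks, 64 bp.

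Few peaks were of 1 kind throughout. Every CpG was inside a tract in 59 shared and 149 unshared peaks, and no CpG in 39 and 81. The other 2206 peaks held CpGs of both kinds. A TKO peak was present at 28.4% of peaks with every CpG inside (22.7 to 34.8), at 49.9% of those with 50% or more but not every one (47.6 to 52.1), at 42.6% of those with under 50% (37.6 to 47.8) and at 32.5% of those with none (24.8 to 41.3). The overlap with TKO peaks thus did not rise steadily with the share of CpGs inside tracts. Peaks with every CpG inside were narrow, with a median of 241 bp.

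The CpGs inside tracts were stacked at the middle of the peaks. Within 50 bp of the midpoint, shared peaks averaged 6.95 CpGs per 100 bp inside tracts and 0.429 outside, and unshared peaks 8.94 and 1.32. At 300 to 500 bp from the midpoint the values were 0.101 inside and 1.25 outside in shared peaks, and 0.0461 and 1.95 in unshared peaks. Outside CpGs were fewer in the middle than in the flanks, and in both sets the flanks lay above the autosomal 0.851. These values are per 100 bp of all bases, tracts included, and an outside CpG cannot lie in a tract. The dip in the middle is therefore in part set by the definition. In shared peaks 82.8% of the CpGs under the TKO peak were in tracts, against 15.6% of the CpGs of the same SssI peaks that lay beside it.

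**Figure D2:**
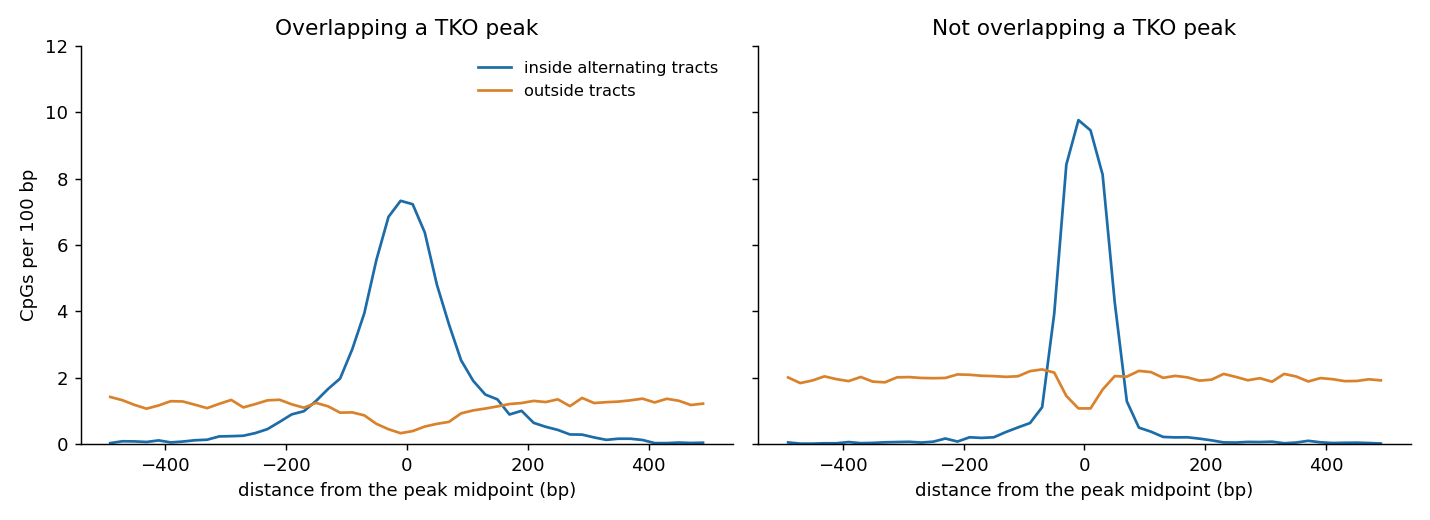
CpGs per 100 bp (vertical axis) in 20-bp bins against the distance from the peak midpoint in bp (horizontal axis), averaged over the 1172 shared peaks (left) and the 1362 unshared peaks (right); the lines separate CpGs inside and outside alternating tracts. Tract CpGs peak at the midpoint in both sets, over a narrower span in unshared peaks, while outside CpGs dip there. Bases inside tracts are counted in the denominator of both lines, so the dip is in part set by the definition.

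The neighbours of the CpGs differed between the sets. In an alternating tract a CpG can stand in ACGC (or GCGT on the other strand), in GCGC or in ACGT. In shared peaks 51.5% of CpGs stood in ACGC or GCGT, 20% in GCGC and 6.75% in ACGT. In unshared peaks the shares were 33.8%, 34.0% and 4.38%. The first context arises where a CpG is joined to a CA repeat, as in the Sos1 peak, and the second inside a CG run. Both can also occur without a repeat, and CpGs outside tracts were counted too. The 3 contexts together held 78.2% of CpGs in shared and 72.2% in unshared peaks, more than lay in tracts (71.9% and 64.6%). The distance from 1 CpG to the next differed as well. Steps of 2 bp, as in CGCG, were 18.2% of all steps in shared and 33.8% in unshared peaks, with per-peak medians of 14.3% and 33.3%. Steps of 4 bp were 16.5% and 20.6%, and odd steps, which break the alternation, were 15.1% and 16.5%.

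Runs of CG repeated 6 times (CGCGCGCGCGCG or GCGCGCGCGCGC) were present in 12.3% of shared peaks (10.5 to 14.3), in 37.4% of unshared peaks (34.9 to 40) and in 1.34% of all autosomal SssI peaks. Because shared peaks are wider, the same was counted at one width. Among peaks of 200 to under 300 bp, 15 of 57 shared peaks (26.3%, 16.6 to 39.0), 229 of 587 unshared peaks (39.0%, 35.1 to 43.0) and 1.54% of all 54546 SssI peaks had such a run. The intervals of shared and unshared peaks overlap at this width, which few shared peaks have. A run of CA repeated 6 times, in either phase or strand (CACACACACACA, ACACACACACAC, TGTGTGTGTGTG or GTGTGTGTGTGT), was in 92.5% of shared, 86.6% of unshared and 93.9% of all SssI peaks. CACG repeated 4 times, in any phase or strand, was in 17.3%, 21.4% and 0.762%. No one of these motifs contains another. CG and CACG runs bring CpGs of their own, so the rule itself favours peaks that hold them. Their gap to all SssI peaks is therefore in part set by the rule. Over all CpG-rich peaks 89.3% had the CA run (88.0 to 90.4), fewer than of all SssI peaks. At 200 to under 300 bp the order of the sets was the opposite for CA, with 87.7% of shared (76.8 to 93.9) and 92.2% of unshared peaks (89.7 to 94.1), and the intervals overlap. For CACG the shares at this width were 14.0% (7.29 to 25.3) and 26.7% (23.3 to 30.5), and these intervals overlap as well.

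Score also went with CG runs. Without regard to score, 22.0% of CpG-rich peaks with a CG run (19 to 25.4) and 54.7% of those without one (52.4 to 56.9) were shared. Below a score of 200 at most 2.86% were shared in either kind. From 200 to under 500 the shares were 5.07% and 6.69%, from 500 to under 1000 27.4% (20.1 to 36.1) and 41.1% (36.0 to 46.5), from 1000 to under 1500 75% and 78.6%, and at 1500 or more 84% and 89.8%. In the last 4 classes the intervals of the shares overlap, and the gap was smaller than over all scores.

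The overlap with TKO peaks was lower in peaks with 30% or more of their steps at 2 bp. With under 10% of steps at 2 bp, 57.9% of 870 CpG-rich peaks were shared, at 10 to under 30% 60.7% of 671, at 30 to under 50% 43.0% of 440, and at 50% or more 13% of 553. Score and width fell over the same classes, from a median score of 1127 in the first to 212 in the last, so the classes were split by score. From 500 to under 1000 the 4 shares were 47.1%, 44.6%, 29.9% and 17.6%, and the intervals of the first (39.5 to 54.9) and the last (11.0 to 27.1) were apart. From 1000 to under 1500 they were 81.8%, 81.3%, 73.9% and 55.1%. At 1500 or more they were 90.8%, 90.5%, 84.9% and 84.6%, with intervals that overlap. Below a score of 500, under 10% of peaks were shared in every spacing class, so no order could be read there. The split by score did not level width. From the first spacing class to the last, median width fell from 433 to 296 bp at scores of 500 to under 1000. At 1000 to under 1500 it fell from 532 to 371 bp. Spacing and width can therefore not be told apart here.

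**Figure D3:**
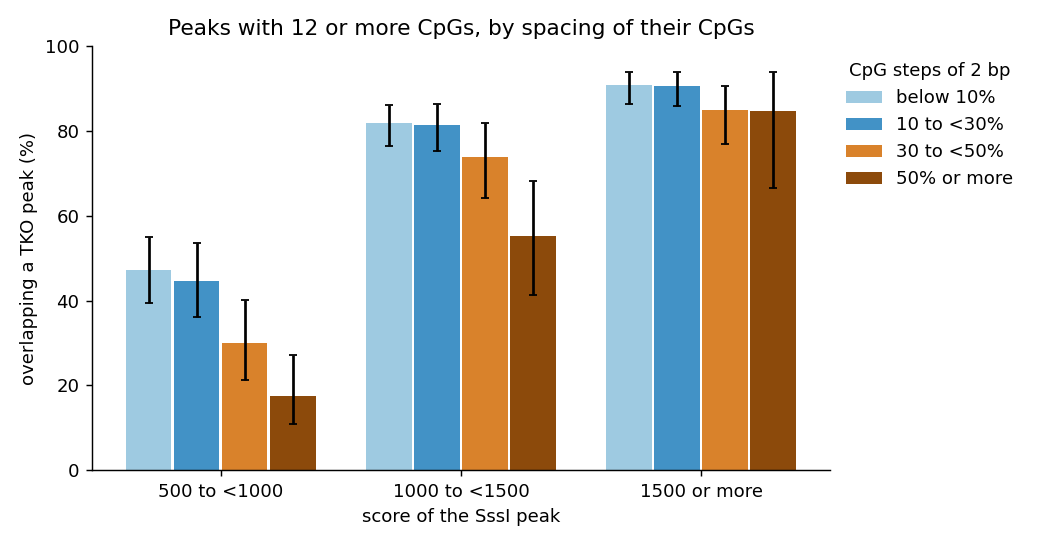
Share of CpG-rich SssI peaks that overlap a TKO peak (vertical axis, percent), in 3 classes of score (horizontal axis) and 4 classes of the share of CpG-to-CpG steps that are 2 bp long (colours); error bars are Wilson 95% intervals. In the lower 2 score classes the bars drop for peaks with 50% or more of their steps at 2 bp. At 1500 or more the intervals overlap. In each score class the peaks with 50% or more of such steps also have the lowest median width.

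A further pair of sequences shows CG runs in short, dense peaks. They are the peaks of up to 300 bp with the highest density in each set among those that touch no exon, and were chosen after their values were seen. The shared peak, chr17:4158088-4158266, is 36064 bp from the nearest start site and had 14 CpGs, a score of 42 and a TKO score of 468. The unshared peak, chr10:67920988-67921129, is 8397 bp upstream of Zfp365 and had 25 CpGs and a score of 114. Capitals again mark tracts, on the plus strand of mm10.
chr17, shared, 12 of 14 CpGs inside: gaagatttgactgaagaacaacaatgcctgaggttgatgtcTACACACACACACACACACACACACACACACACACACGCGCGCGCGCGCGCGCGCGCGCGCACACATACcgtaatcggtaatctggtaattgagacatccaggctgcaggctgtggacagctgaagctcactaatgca
Zfp365, unshared, 21 of 25 CpGs inside: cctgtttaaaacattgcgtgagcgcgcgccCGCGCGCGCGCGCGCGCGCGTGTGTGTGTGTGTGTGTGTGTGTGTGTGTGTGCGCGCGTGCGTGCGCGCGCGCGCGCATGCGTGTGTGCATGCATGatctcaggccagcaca
Both tracts contain a pure CG run beside a repeat of CA or TG. Steps of 2 bp were 84.6% of the steps in the shared and 75% in the unshared peak, so this pair does not show the closer spacing that unshared peaks had on the whole.

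CpG-dense windows of the autosomes rarely overlapped a peak when none of their CpGs lay in a tract. The autosomes hold 78903 windows of 200 bp with 12 or more CpGs, of which 2.52% overlapped an SssI peak and 0.790% a TKO peak. Of the 73267 windows with no CpG in a tract, 329 overlapped an SssI peak (0.449%). With 1 to 5 CpGs in tracts the share was 5.48% of 3284 windows, with 6 to 11 it was 47.1% of 1329, and with 12 or more 83.8% of 1023 (81.4 to 85.9). The shares for TKO peaks in the same 4 classes were 0.0287%, 0.761%, 8.88% and 44.9%. Windows near and far from start sites were also counted apart. Of windows with 6 or more CpGs in tracts, 33.0% of the 628 within 1 kb of a start site and 74.0% of the 1724 farther away overlapped an SssI peak. The near windows held fewer CpGs in tracts. Of windows with 6 to 11 such CpGs 39.7% were within 1 kb, and of those with 12 or more 9.78%. Distance and the number of tract CpGs can therefore not be told apart here. Windows without a CpG in a tract were near 0 on both sides, 0.465% and 0.422%.

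Start sites were nearer to CpG-rich peaks than to SssI peaks in general, but most CpG-rich peaks were not at promoters. The nearest start site of any transcript lay within 1 kb of the midpoint in 13.9% of CpG-rich peaks (12.6 to 15.3), in 5.03% of all autosomal SssI peaks and in 62.4% of the windows with 12 or more CpGs. The share was 7.51% in shared peaks (6.13 to 9.16) and 19.5% in unshared peaks (17.4 to 21.6). Median distances were 10814 bp in shared, 7312 bp in unshared and 15773 bp in all SssI peaks. With start sites of protein-coding transcripts alone, 8.84% of CpG-rich peaks were within 1 kb. By midpoint, 45.0% of CpG-rich peaks were in introns, 34.6% between genes, 17.6% within the 3000 bp before a start site and 2.80% in exons.

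**Figure D4:**
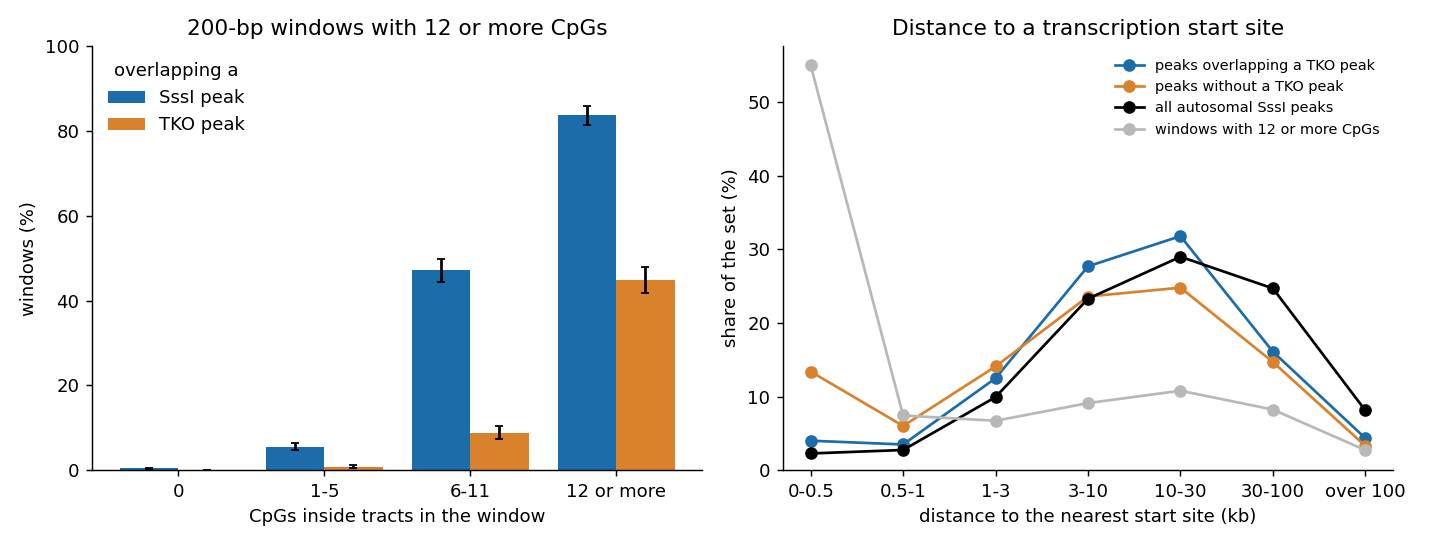
Left, share of autosomal 200-bp windows with 12 or more CpGs that overlap an SssI or a TKO peak (vertical axis, percent), by the number of their CpGs inside tracts; error bars are Wilson 95% intervals. Right, share of each set (vertical axis, percent) by distance of the midpoint to the nearest start site in kb; the windows crowd within 0.5 kb (55.0%), whereas shared peaks are most frequent at 10 to 30 kb (31.8%) and unshared peaks have a smaller rise within 0.5 kb (13.4%).

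The peaks close to start sites were of another make. In the 353 CpG-rich peaks within 1 kb of a start site 43.4% of CpGs were inside tracts, against 70.1% at 1 to 10 kb, 75.3% at 10 to 100 kb and 80.2% beyond 100 kb. Their median GC content was 56.9%, and that of the other 2181 peaks 50.7%. A TKO peak was present at 24.9% of them (20.7 to 29.7), and at 47.8%, 51.1% and 53.1% in the 3 classes farther out. Their median score was 366, against 963 in the peaks farther away. Of peaks with under 50% of their CpGs inside tracts, 17.7% of shared and 51.6% of unshared ones were within 1 kb. Of peaks with 50% or more inside, the shares were 5.51% and 10.9%.

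Peaks at the start sites of coding genes illustrate this. In the unshared set the nearest ones were at Spop, which encodes a substrate adaptor of a ubiquitin ligase, Nr3c2, the mineralocorticoid receptor, and Foxp2, a transcription factor, with midpoints 2, 4 and 10 bp from the start. The Spop peak (chr11:95414052-95414437, score 1253) had 2 of its 28 CpGs inside a tract. The Nr3c2 peak (chr8:76899690-76899861, score 67) had 4 of 13 inside, and the Foxp2 peak (chr6:14901236-14901482, score 223) 6 of 24. In the shared set the nearest were at Pde10a, a phosphodiesterase, Rnf150, a RING finger protein, and Celf4, an RNA-binding protein, 9, 20 and 26 bp from the start. The Pde10a peak (chr17:8525199-8525562) had 6 of 15 CpGs inside, a score of 1526 and a TKO score of 96. The Rnf150 peak (chr8:82863182-82863570) had 2 of 21 inside, with 4 of its CpGs under the TKO peak. The Celf4 peak had 7 of 25 inside and 16 under the TKO peak. At each of these 6 start sites fewer than 50% of the CpGs were in tracts, yet each peak held a tract, of 29 to 64 bp.

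Of the 6 densest peaks, 3 in each set, 5 lay within 1 kb of a start site. Among unshared peaks the highest densities were 17.8 CpGs per 100 bp at Camk2b, a calcium-dependent kinase (chr11:6065728-6065935, score 161), 17.6 at the Zfp365 peak printed above, and 16.9 near Dyrk1a, another kinase (chr16:94569826-94570157, score 1023). The Camk2b and Dyrk1a peaks lay 84 and 18 bp from a start site, had 78.4% and 78.3% GC, and had no CpG in a tract out of 37 and 56. Among shared peaks the densest were at exon 1 of Cdyl2, a chromodomain protein (chr8:116732718-116733185, 15.4 per 100 bp), near Lemd1 (chr1:132190467-132190935, 14.5) and in intron 1 of Pvr, a cell adhesion receptor (chr7:19920548-19920747, 11.0). In the Cdyl2 and Lemd1 peaks 25 of 72 and 8 of 68 CpGs were inside tracts; in the Pvr peak 15 of 22 were.

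The peaks with the most CpGs differed between the sets. In the shared set they were long repeats. The peak in intron 9 of Fam71e2 (chr7:4755143-4756397) had 97 of its 101 CpGs inside a single tract of 869 bp, the longest tract in any autosomal SssI peak. The peak in intron 3 of Mxi1, a MAX-binding repressor (chr19:53348554-53349713), had 89 of 91 inside, and the peak near Fmnl3, a formin gene (chr15:99380470-99381426), 82 of 89. Their scores were 1045, 1427 and 969 and their TKO scores 1667, 1947 and 2005. In the unshared set the peaks with the most CpGs were at Srcin1, which encodes an inhibitor of Src (chr11:97575045-97575490), with 16 of 68 inside, near Nr4a3, an orphan nuclear receptor (chr4:48044811-48045451), with 11 of 66, and near Polr1d, a subunit of RNA polymerases I and III (chr5:147112595-147113468), with 0 of 64.

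The peaks with the highest scores had 12 to 25 CpGs, most of them in tracts. In the shared set these were in introns of Prima1, an anchor of acetylcholinesterase (chr12:103212839-103213590, score 2344, 14 of 19 CpGs inside), Cep290, a protein of cilia (chr10:100519766-100520844, 2335, 21 of 25), and Jarid2, a partner of Polycomb repressive complex 2 (chr13:44762638-44763160, 2335, 10 of 12). In the unshared set they were in introns of Gm20388 (chr8:123810917-123811536, 2290, 21 of 24) and Cacng5, a calcium channel subunit (chr11:107907666-107908209, 2290, 17 of 20), and nearest to Gm43853 (chr3:112220073-112220455, 2218, 11 of 12). The longest tracts of the 3 shared peaks were 48, 20 and 71 bp and those of the 3 unshared peaks, in the same order of mention, 160, 148 and 72 bp.

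The study names 12 genes as examples of regions bound in vitro, bound in germ cells, or less methylated in Zbtb43-/- than in wild-type sperm. Of these, 10 held the midpoint of a CpG-rich peak, 16 peaks in all. The share over all genes was not counted, and the study chose these genes as examples. The count is therefore not a result about them. The peaks were matched to the genes and not to the exact regions the study shows. The 9 shared ones had 18 to 91 CpGs and the 7 unshared ones 12 to 20. Over all CpG-rich peaks 46.3% were shared. Tshz2, a zinc finger gene, had both kinds in its first intron. The shared peak there (chr2:169944451-169945325) had 62 of 65 CpGs inside tracts and a TKO score of 1007. The unshared peaks had 10 of 13 (chr2:169776617-169776928) and 11 of 13 inside (chr2:169862374-169862512), with scores of 1293 and 91. Mxi1 likewise had, besides the shared peak above, 2 unshared peaks with 4 of 17 and 5 of 20 CpGs inside, 590 and 264 bp from a start site.

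The 120 peaks without a CpG inside a tract, 75 of which had no tract at all, included a group of tandem repeats with long units. The unit of a peak was the shift at which most bases equalled the base 1 shift farther on, and a longer shift had to beat shorter ones by a margin. A peak was counted as such when its unit was 9 to 200 bp and 70% or more of its bases were equal. This measure was added after the data had been seen. It was met by 46 of the 120 peaks (38.3%, 30.1 to 47.3) and by 19 of the 2414 peaks with a CpG inside a tract (0.787%). Peaks that match best at a shorter shift, as repeats of CA or CG do, could not meet it. The gap between these shares was therefore in part set by the measure. The 46 had units of 12 to 165 bp with a median of 35.5 bp, a median width of 694 bp and a median score of 337. The longest alternating run in them had a median of 9 bp and did not pass 21 bp. Of the 46, 17 were shared, with a median score of 1158, and 29 were unshared, with a median of 184.

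The peak of each set with the most CpGs in this group is shown by the 150 bp that hold most CpGs. The shared one is chr6:126959030-126961041 in intron 9 of D6Wsu163e, with 57 CpGs, a unit of 31 bp that matches itself at 93.4% of bases, a score of 864 and a TKO score of 102. The stretch printed is chr6:126959288-126959437. The unshared one is the Polr1d peak, with a unit of 30 bp and a score of 1171, of which chr5:147112921-147113070 is printed. Neither stretch has capitals, as neither has a tract.
D6Wsu163e, shared: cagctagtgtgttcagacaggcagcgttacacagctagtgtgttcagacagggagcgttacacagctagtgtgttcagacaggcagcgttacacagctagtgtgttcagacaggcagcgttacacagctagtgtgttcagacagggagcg
Polr1d, unshared: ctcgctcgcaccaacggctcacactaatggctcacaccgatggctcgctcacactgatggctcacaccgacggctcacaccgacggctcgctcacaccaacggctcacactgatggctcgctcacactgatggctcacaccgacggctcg
A further shared example, likewise chosen after its values were seen, lies in intron 4 of Stxbp5, which encodes a syntaxin-binding protein (chr10:9853234-9855498). It had 50 CpGs, no alternating run over 9 bp, a score of 2236 and a TKO score of 1293, and 47 of its CpGs lay under the TKO peak. It held no tract, which 98.7% of all autosomal SssI peaks overlap.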

How the data were processed

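Affinity-seq libraries were aligned by the authors to mm10 with BWA 0.7.17 (bwa mem), duplicates were pooled, and peaks were called with MACS2 2.2.7.1 against MBP libraries. The deposited lists give positions and a score, which the authors' caller derived from the q-value (its −log10 multiplied by 10, without decimals). From these lists, overlaps of 1 bp or more were counted on the 19 autosomes. CpGs and alternating tracts (12 bp or more, read on the chromosome) were counted on GRCm38; a CpG that the DNA used lacks or gains was not seen. Start sites and introns are from GENCODE M21, by peak midpoint; numbering follows the coding transcript with most exons. Regions named were, per set, the 3 with most CpGs, highest density, highest score and nearest a coding start site, and those in genes the study names as examples. The sequence of the shared peak with some CpGs inside tracts is not reported here. Sequences printed are of peaks that touch no exon and lie on autosomes other than 18. Members and lists were chosen with earlier results of these data known. No test was made, since each DNA has 1 pooled list; depth is unknown. Counting was tested on simulated data with Python 3.11.15, numpy 2.4.6 and pandas 2.3.3; scipy 1.17.1 gave Wilson 95% intervals and matplotlib 3.10.9 the plots.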

Additional observations from a re-analysis of the deposited data

How the results depend on the processing

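The number of CpG-rich peaks was 7851 with a minimum of 8 CpGs and 1049 with 16, and stayed within 1.5 times of 2534 under the other alternatives. The share with a TKO peak was 32.6% with 8 CpGs, 59.3% with 16, 38.8% when 50% of the SssI peak had to be covered and 33.2% with 12 CpGs within 100 bp of the midpoint. It was 8.54% with a density of 5 CpGs per 100 bp in place of a number, for which peaks had a median width of 177 bp and a median score of 96. A score of 50 or more (q of 1e-05) in both lists and the merging of peaks within 200 bp gave 46.1% and 45.8%. The share of CpGs inside tracts with tract minimums of 10, 16 and 24 bp was 73.5%, 68.7% and 63.9% in shared peaks and 66.7%, 60.9% and 56.9% in unshared peaks. Counted over CpGs, it stayed the higher one in shared peaks throughout. The per-peak medians at 12 bp hardly differed, 77.3% in shared and 78.0% in unshared peaks, and were not recounted at the other minimums. The share within 1 kb of a start site was 8.84% with coding transcripts, 15.4% from the nearest edge, 19.9% with 16 CpGs and 17.6% by density. Tandem repeats without a CpG in a tract numbered 30 when 80% of bases had to be equal, an alternative added after seeing the data. No paired analysis was possible because the peak lists were called on pooled duplicates. Replicates could not be left out of the lists for the same reason, and signal tracks of single libraries were not analysed here. Peaks in repeats depend on how uniquely reads map there, which the lists do not give.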
